A study of Rattus norvegicus with 6 samples.

Results

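Expression of cadherins and of genes that drive the switch from epithelial to mesenchymal adhesion was examined in kidney tissue of heterozygous Cy/+ and wild-type +/+ Han:SPRD rats, all males labelled as 10 weeks old, with 3 samples of each genotype and 1 oligonucleotide array per sample. Cy/+ rats carry a missense mutation of Anks6 on 1 allele and develop slowly progressing cystic kidneys, and +/+ rats of the same colony served as controls. The methods of the study give a younger age for the array kidneys than the labels do, and no source used here says whether the samples of a genotype are different animals, so p-values reflect only how far these samples spread, and that spread may be technical. The list held 10 genes: the cadherin genes Cdh1, Cdh2, Cdh3, Cdh6, Cdh11, Cdh16 and Cdh17, and the transcription factor genes Snai1, Snai2 and Twist1. Members were found by the gene symbol of the platform annotation, and each was represented by its brightest probe set over the 6 arrays. Of the 10 genes, 9 had a probe set named for them alone, with 15 probe sets in all among the 31099 of the array, and Snai2 was not analysed here. Tests were limited to probe sets with an average log2 signal at or above the 40th percentile, which is 77.8 on the linear scale, and 8 of the 9 genes had one, among 10645 genes tested in all. Cdh17 lay below this threshold.

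Cadherins are calcium-dependent adhesion proteins that join neighbouring cells at adherens junctions and reach the actin cytoskeleton through catenins. In the adult kidney E-cadherin, encoded by Cdh1, is known from the distal nephron and collecting duct and N-cadherin, encoded by Cdh2, from the proximal tubule, while Cdh16 encodes the kidney-specific cadherin of tubule epithelium. Replacement of E-cadherin by N-cadherin, with induction of Snail, Slug and Twist, which bind E-box sequences and repress Cdh1, is the classical description of epithelial-mesenchymal transition. Because whole kidney was measured, fewer cells of a type and less RNA per cell cannot be told apart in any of the values below.

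Cdh1, Cdh3, Cdh6, Cdh16 and Twist1 were higher in Cy/+ than in +/+ kidneys, Cdh2, Cdh11 and Snai1 did not pass the test by their brightest probe set, and none of the 8 tested genes was lower by that probe set. For Cdh1, Cdh3, Cdh6 and Cdh16, which reached the threshold in both genotypes, the rise was 1.29-fold to 2.08-fold. Among all 10645 genes tested, 66.7% passed limma's threshold, an adjusted p of 0.05, and 37.4% were higher, so that 5 genes higher of 8 is a count read against a background in which most genes differed. Twist1 passed the filter through its Cy/+ arrays, since its mean in +/+ kidneys lay below the threshold. Of the 7 genes that reached the threshold in both genotypes 4 were higher, against 36.7% of all such genes, of which 65.6% passed in either direction. The arrays of the 2 genotypes did not overlap for the same 5 genes, with every Cy/+ array above, as for 41.5% of all genes tested, while 33.1% had every Cy/+ array below and 74.6% did not overlap in either direction. Without +/+ replicate 1 the number that was higher was 2 (Cdh1 and Cdh6), and without +/+ replicate 2 it was 3. No tested gene was lower at an unadjusted p below 0.05 either, nor by the methods' t-test, and without Cy/+ replicate 1 there was 1 that was lower, Cdh2.

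**Figure D1:**
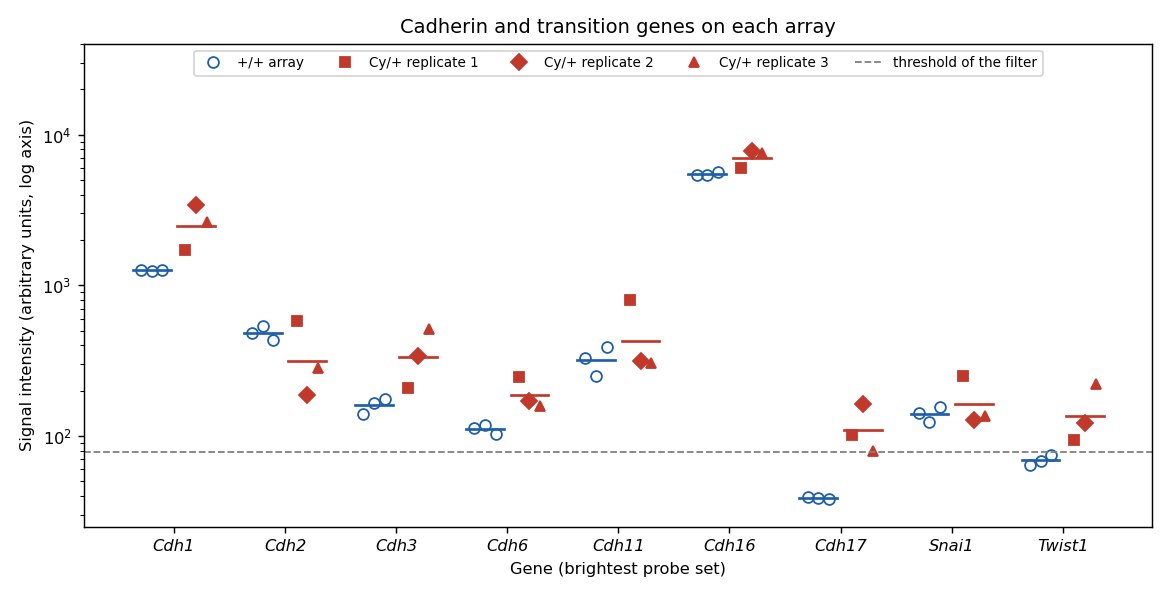
Signal intensity of each array in arbitrary units on a log axis for the brightest probe set of the 9 genes. Open circles are +/+ arrays, red symbols the 3 Cy/+ arrays, short lines the mean of each genotype on the log scale and the dashed line the threshold of 77.8. The Cy/+ arrays of Cdh1, Cdh3, Cdh6, Cdh16, Cdh17 and Twist1 all lie above the +/+ arrays, and those of Cdh2, Cdh11 and Snai1 overlap with them.

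The arrays themselves differed between the genotypes in measures of labeling and RNA quality. For beta-actin, signal at the 3' end divided by that at the 5' end was 3.22 ± 0.26 (SD, n = 3) on Cy/+ and 1.51 ± 0.0057 (SD, n = 3) on +/+ arrays, and the 18 spiked-in hybridization controls were brighter on Cy/+ arrays by a median of 1.83-fold. The 27 poly-A control probe sets, which follow the labeling, were brighter by a median of 3.75-fold, and the 3' to 5' ratio of Gapdh was 1.85 ± 0.10 against 1.18 ± 0.036 (SD, n = 3). Pairs of +/+ arrays had a correlation of 0.997 in log2 signal across probe sets, and pairs of Cy/+ arrays at 0.982 to 0.990. These measures move with genotype, and their part in the changes described here was not tested.

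Cdh1, the gene of E-cadherin, rose in Cy/+ kidneys. Its signal was 1273, 1245 and 1267 in the 3 +/+ kidneys and 1727, 3393 and 2616 in the 3 Cy/+ kidneys. Every Cy/+ array lay above every +/+ array, and the +/+ arrays were within a few percent of each other while the brightest and dimmest Cy/+ arrays stood far apart. The mean was 1262 ± 14.7 (SD, n = 3) in +/+ and 2579 ± 834 (SD, n = 3) in Cy/+ kidneys, and the log2 fold change was 0.98 ± 0.22 (SE; limma, adjusted p = 0.00651). Cdh1 passed in all 18 alternative settings, with log2 fold changes from 0.75 to 1.24. A second probe set named for Cdh1 had signals of 15.8 to 18.3 on all 6 arrays, below the threshold.

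Cdh3, which encodes P-cadherin, a classical cadherin of placenta and of basal epithelial layers, is the neighbour of Cdh1 in the gene order of the rat assembly GRCr8, and it rose as well. Its signal was 140.1, 165 and 176 in +/+ kidneys and 209.9, 339 and 516 in Cy/+ kidneys, without overlap. The log2 fold change was 1.06 ± 0.30 (SE; limma, adjusted p = 0.017). The Cy/+ arrays ranked differently from those of Cdh1: replicate 3 was the brightest for Cdh3 and replicate 2 for Cdh1, and replicate 1 was the dimmest for both. The call of Cdh3 was lost without +/+ replicate 1 (limma, adjusted p = 0.0609) and with the methods' t-test (adjusted p = 0.0779).

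Cdh16 had the brightest signal among the probe sets of these genes, although signals of different probe sets are not comparable as levels, and its change was small. Its values were 5374, 5391 and 5637 in +/+ kidneys and 5994, 7772 and 7507 in Cy/+ kidneys. The groups did not overlap, with Cy/+ replicate 1 closest to the +/+ arrays. The mean rose from 5467 ± 147 (SD, n = 3) to 7091 ± 959 (SD, n = 3), a log2 fold change of 0.37 ± 0.11 (SE; limma, adjusted p = 0.0203), and of the 10645 genes tested 60.3% had a larger absolute log2 fold change. The call was lost without Cy/+ replicate 3, +/+ replicate 1 or +/+ replicate 2, with arrays centred on the median and with the methods' t-test (adjusted p from 0.0513 to 0.0667).

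Cdh6 encodes K-cadherin, first cloned from kidney and known from the developing nephron, where it is expressed in the precursors of the proximal tubule. Its signal was 114, 118 and 104 in +/+ kidneys and 245, 171 and 159 in Cy/+ kidneys. All Cy/+ arrays lay above all +/+ arrays, and here Cy/+ replicate 1 was the brightest of the 3. The log2 fold change was 0.75 ± 0.17 (SE; limma, adjusted p = 0.00625), and the call was kept in all 17 alternative settings that tested the gene. Proximal tubule markers went the other way in the same arrays. All 18 that were measured were lower in Cy/+ kidneys, beside 29.3% of all genes tested. Their summed signals were 147276 to 156992 in +/+ and 16978 to 41946 in Cy/+ kidneys. None of the 18 lay below the threshold in both genotypes.

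Cdh17, which encodes the liver-intestine cadherin, was not tested because its average signal was too dim to reach the threshold. Its signal was 39.3, 39.0 and 38.2 in +/+ kidneys and 102.1, 162 and 79.1 in Cy/+ kidneys. The +/+ arrays were all below 77.8 and the Cy/+ arrays all above it. The Cy/+ mean on the log2 scale was 1.41-fold over the threshold, and no exact fold is given because the +/+ signal is a dim one without a detection call. Among genes of any signal, 34.3% had every Cy/+ array above every +/+ array and 67.5% did not overlap in either direction.

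The probe sets of Cdh2 differed in whether they passed. By its brightest probe set the signal was 484, 535 and 432 in +/+ kidneys and 579, 187 and 283 in Cy/+ kidneys. Cy/+ replicate 1 lay above all +/+ arrays and the other two Cy/+ arrays below them, so that the groups overlapped, and the log2 fold change of -0.62 did not pass (95% confidence interval -1.50 to 0.25; limma, adjusted p = 0.172). By the second probe set the signal was 471, 459 and 414 in +/+ and 248, 94.8 and 157 in Cy/+ kidneys, without overlap.

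This second probe set of Cdh2 fell in Cy/+ kidneys, its log2 fold change being -1.53 ± 0.31 (SE; limma, adjusted p = 0.00395). It passed in each setting that tested it by itself, with log2 fold changes from -1.87 to -1.18. The dimmest of its probe sets had a log2 fold change of -0.23 (95% confidence interval -0.50 to 0.04, limma, adjusted p = 0.115). Its Cy/+ signals, 80.9 to 102.6, all lay below its +/+ signals, 105.5 to 112.7. Among all genes tested, 33.1% had every Cy/+ array below every +/+ array. All 3 probe sets thus had a negative estimate and 1 of them passed. Among all probe sets tested 67.1% passed, 35.8% as higher and 31.3% as lower. The brightest one did pass, lower, without Cy/+ replicate 1 (-1.07 in log2, limma, adjusted p = 0.0019) and with array quality weights (limma, adjusted p = 0.0106). The mean of the 3 probe sets, which includes the second one, passed as lower too (log2 fold change -0.80, limma, adjusted p = 0.0138). The part of Cdh2's transcripts that each probe set reads is not given in the sources used here.

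**Figure D2:**
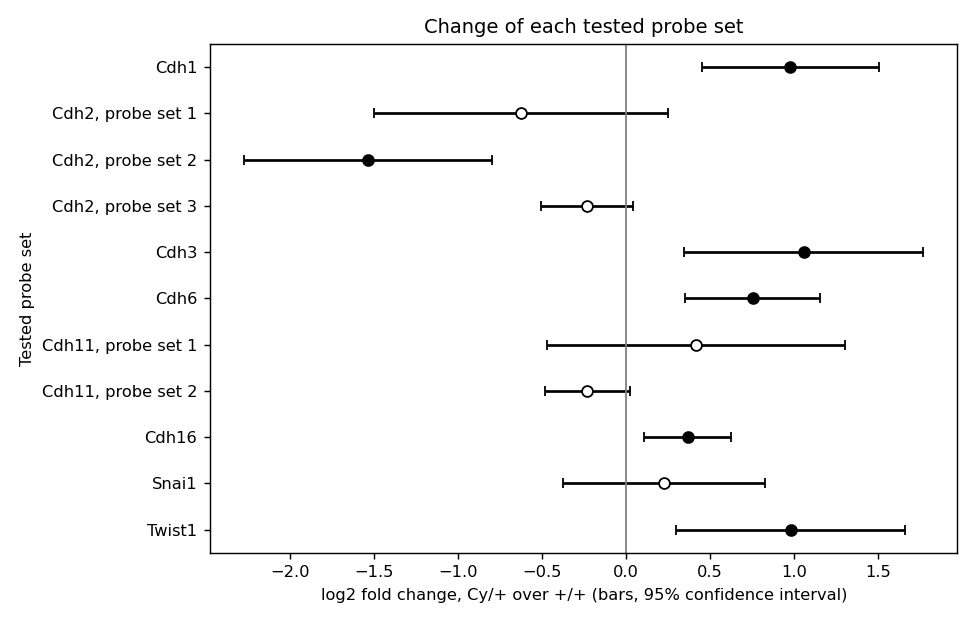
Log2 fold change, Cy/+ over +/+, with its 95% confidence interval for the 11 tested probe sets of the 8 genes. Filled points passed limma's adjusted p of 0.05 and open points did not. The 3 probe sets of Cdh2 lie at -0.62, -1.53 and -0.23, and the 2 of Cdh11 lie on opposite sides of 0.

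Set against Cdh1 on the same array, which removes any scaling factor of that array, Cdh2 by its brightest probe set changed from the +/+ mean by -0.19, -2.79 and -1.82 on the log2 scale in Cy/+ replicates 1, 2 and 3. The +/+ arrays ran from -0.164 to 0.171 in this measure. All 3 Cy/+ arrays were below each of them, but replicate 1 only just, at -0.189 against -0.164 in +/+ replicate 3. For Cdh16 the same difference was -0.32, -0.92 and -0.59, so that Cdh16 rose less than Cdh1 on every Cy/+ array. For Cdh6 it was 0.68, -0.81 and -0.54, and for Cdh11 0.87, -1.44 and -1.11, with Cy/+ replicate 1 on the other side of 0 from the others in both. These differences describe unequal change of 2 probe sets and no test was applied to them.

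Cdh11 encodes OB-cadherin, a cadherin of mesenchymal cells and osteoblasts. Its signal was 332, 249.5 and 389.5 in +/+ kidneys and 794, 316 and 305 in Cy/+ kidneys. Cy/+ replicate 1 stood above all other arrays, and the remaining Cy/+ arrays fell within the range of the +/+ arrays. The log2 fold change of 0.41 did not pass (95% confidence interval -0.47 to 1.30; limma, adjusted p = 0.353) and was -0.04 without Cy/+ replicate 1. A second tested probe set gave -0.23 (95% confidence interval -0.48 to 0.02; limma, adjusted p = 0.0919), with 105.5 to 117 in Cy/+ and 117.5 to 143 in +/+ kidneys, and it passed as lower with quantile normalization (adjusted p = 0.0343) and with arrays centred on the median (adjusted p = 0.0342). Another probe set was below the threshold.

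Among the transcription factors, Snai1, which encodes Snail, a zinc finger repressor of Cdh1, had signals of 143, 123 and 156 in +/+ kidneys and 250.4, 128.5 and 137 in Cy/+ kidneys. As for Cdh11, Cy/+ replicate 1 was above all other arrays and the other two were within the +/+ range. The log2 fold change was 0.23 (95% confidence interval -0.37 to 0.83; limma, adjusted p = 0.451), and it was -0.08 without Cy/+ replicate 1. The interval includes changes of more than 1.5-fold upward, so a shared level was not shown either.

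Twist1, which encodes a basic helix-loop-helix factor of mesenchyme, had signals of 64.6, 68.55 and 75.3 in +/+ kidneys, all below the threshold of 77.8, and of 94.5, 122.5 and 221 in Cy/+ kidneys. The groups did not overlap and the Cy/+ mean was 1.76-fold over the threshold. The fitted log2 fold change was 0.98 ± 0.29 (SE; limma, adjusted p = 0.0194), but Twist1 entered the test only through its Cy/+ arrays and its +/+ signal is a dim one without a detection call, so neither the call nor the exact fold stands on the same footing as those of the brighter genes. The order of the Cy/+ arrays was that of Cdh3, with replicate 3 the brightest and replicate 1 the dimmest. The call was lost without +/+ replicate 1 (limma, adjusted p = 0.0631) or +/+ replicate 2 (adjusted p = 0.0551), and with the methods' t-test. A second probe set of Twist1 was below the threshold, at 29.3 to 32.3 in +/+ and 26.7 to 56.6 in Cy/+ kidneys.

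Snail binds the E-box CAGGTG, so the 250 bases before the RefSeq start of the members were searched for these letters on both strands. The table of promoters, of build GRCr8, held 3 of the 10 genes, Cdh6, Snai1 and Twist1, and all of these are shown. They lie at chr2:63952288-63952537 on the minus strand for Cdh6, at chr3:176667226-176667475 on the plus strand for Snai1 and at chr6:56402059-56402308 on the plus strand for Twist1. Capitals mark CAGGTG or its reverse complement CACCTG.
Cdh6: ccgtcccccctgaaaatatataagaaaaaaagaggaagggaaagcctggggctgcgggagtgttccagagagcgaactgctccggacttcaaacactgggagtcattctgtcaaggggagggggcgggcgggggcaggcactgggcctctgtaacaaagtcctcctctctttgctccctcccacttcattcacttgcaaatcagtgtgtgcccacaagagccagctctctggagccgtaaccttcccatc
Snai1: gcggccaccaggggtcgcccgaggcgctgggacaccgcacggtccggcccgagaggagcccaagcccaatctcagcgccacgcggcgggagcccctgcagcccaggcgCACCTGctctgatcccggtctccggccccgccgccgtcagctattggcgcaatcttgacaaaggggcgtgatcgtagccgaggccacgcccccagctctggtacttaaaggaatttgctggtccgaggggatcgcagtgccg
Twist1: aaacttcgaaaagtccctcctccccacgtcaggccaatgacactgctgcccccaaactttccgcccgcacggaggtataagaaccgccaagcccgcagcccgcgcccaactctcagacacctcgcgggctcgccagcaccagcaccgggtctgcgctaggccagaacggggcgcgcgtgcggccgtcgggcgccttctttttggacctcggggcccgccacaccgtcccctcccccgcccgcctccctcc
The letters were found once, 142 bases before the start of Snai1, and 15.9% of the 33469 promoters searched in the same window held them. The wider E-box CANNTG, which includes CAGGTG, was present in the windows of Cdh6 and Snai1, 1 time each, and in 65.5% of all promoters. The window of Twist1 held neither. Twist1 and Snai1 had 27 and 26 CG dinucleotides in these 250 bases and Cdh6 had 7, against a median of 5. A match is a description of the letters in the window.

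The 3 Cy/+ arrays did not stand in 1 order across the genes. Replicate 1 was the lowest of the 3 for Cdh1, Cdh3, Cdh16 and Twist1, and the highest for Cdh2, Cdh6, Cdh11 and Snai1. The spread on the log2 scale was larger among the Cy/+ than among the +/+ arrays for all 9 genes by their brightest probe sets, as it was for 78.2% of all genes tested. In log2 units the SD of the Cy/+ arrays was 0.20 for Cdh16, 0.33 for Cdh6, 0.49 for Cdh1, 0.78 for Cdh11 and 0.82 for Cdh2, against a median of 0.16 over all genes tested.

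**Figure D3:**
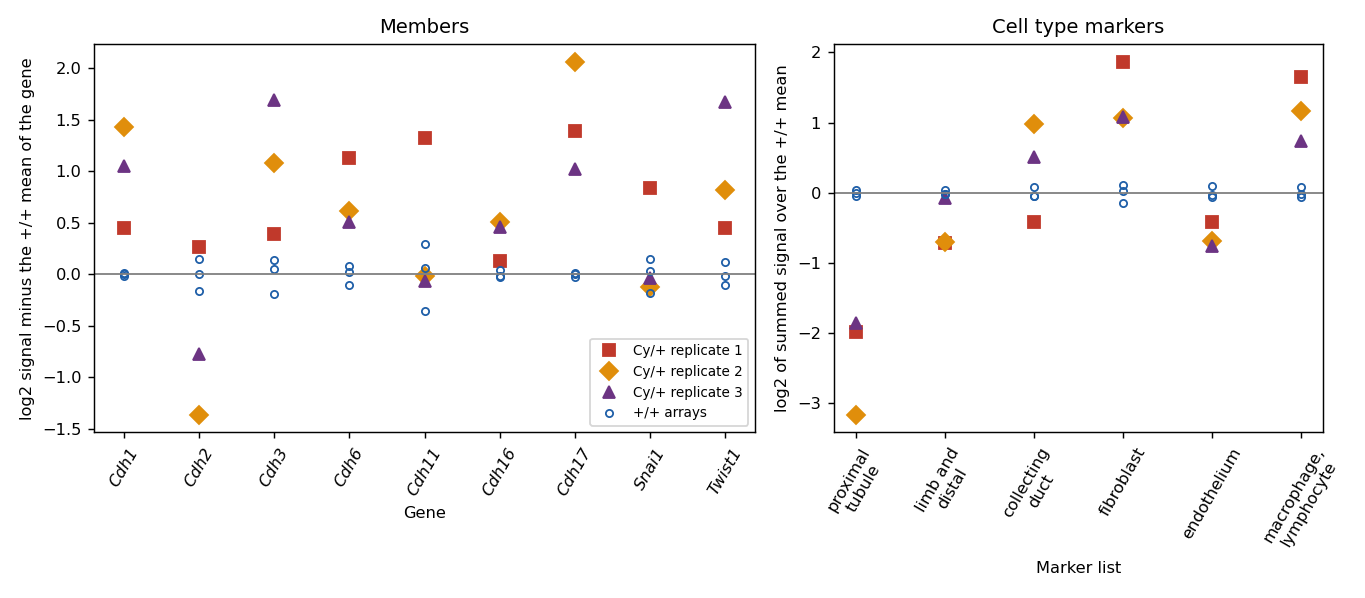
Left, log2 signal of each array minus the +/+ mean of the gene for the 9 genes. Right, log2 of the summed signal of cell type markers on each array over the mean sum of the +/+ arrays. Filled symbols are the 3 Cy/+ arrays and open circles the +/+ arrays. Cy/+ replicate 1 is the lowest Cy/+ array for Cdh1, Cdh3, Cdh16, Twist1 and the collecting duct and limb and distal markers. It is the highest for Cdh2, Cdh6, Cdh11, Snai1 and the fibroblast, endothelium and macrophage and lymphocyte markers.

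Summed signals of cell type markers were set beside these orders, which coincided in part. With 3 arrays few orders are possible, so matches can occur without any link between a gene and a cell type. The 14 measured collecting duct markers, 1 of them below the threshold in both genotypes, summed to 11520, 30331 and 21930 in Cy/+ replicates 1, 2 and 3, which is the order of Cdh1 and of Cdh16, and to 14865 to 16324 in +/+ kidneys. Of the 13 tested, 2 were higher and 1 lower, beside 37.4% higher and 29.3% lower among all genes tested. Without Cy/+ replicate 1 the higher ones were 9, and with any other array left out they were 1 or 2. The 20 fibroblast and pericyte markers, 3 of them below the threshold in both genotypes, summed to 41225 in Cy/+ replicate 1 against 23721 and 23810 in replicates 2 and 3, and to 10226 to 12152 in +/+ kidneys. Cdh2, Cdh6, Cdh11 and Snai1 were also highest in replicate 1, and the sums of these markers in replicates 2 and 3 were nearly equal. Of the 15 tested, 10 were higher, beside 37.4% of all genes tested. The 18 macrophage and lymphocyte markers, 3 of them below the threshold in both genotypes, summed to 11736, 8358 and 6188 in Cy/+ replicates 1, 2 and 3. This is the order of Cdh6 and Cdh11, and the sum was 3569 to 3923 in +/+ kidneys. Of the 14 tested, 12 were higher, beside the same 37.4%. Sums of endothelium markers (8082, 6706 and 6382) and podocyte markers (4723, 4363 and 3757) in Cy/+ replicates 1, 2 and 3 had the same order. In +/+ kidneys they were 10285 to 11467 and 3962 to 4413. These sums are linear, so bright markers weigh most in them. The podocyte sums of the genotypes overlapped, yet of the 6 tested 4 were lower (Podxl, Nphs1, Wt1 and Ptpro) and 2 higher. Of the 2 higher, Synpo gave 2863 of the sum of 4723 in Cy/+ replicate 1. The thick ascending limb and distal tubule sum, over 11 markers of which 1 was below the threshold in both genotypes, was 26103, 26424 and 40815 in Cy/+ replicates 1, 2 and 3, the order of Cdh3 and Twist1, and 42291 to 43868 in +/+ kidneys. The proximal tubule sum was 38551, 16978 and 41946, lowest in replicate 2 like Cdh2 but highest in replicate 3, where Cdh2 was highest in replicate 1. The part of cell composition in the changes of the members was not tested.

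For each tested gene the genes with the most similar pattern over the 6 arrays, by the distance between log2 signals taken from each gene's own +/+ mean, were listed as a description. Nearest to Cdh1 were Pdcd4 (distance 0.14), Col7a1 (0.15) and Itgb3bp (0.18). Mrps6 and S100a9 were the nearest to both Cdh3 (0.23 and 0.26) and Twist1 (0.25 and 0.35). Nearest to Cdh11 were Sparcl1 (0.29), Cyp26b1 (0.29) and Gypc (0.35), and nearest to Snai1 was Reck (0.11). Cdh2 had Plscr2 (0.19) nearest and Cdh16 had Fadd (0.066). Ice1 (0.10) was nearest to Cdh6.

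The lists of related genes are read against all genes tested, of which 37.4% were higher, 29.3% lower and 66.7% either. Of 52 other genes of the cadherin superfamily, 12 were tested, of which 7 were higher and 2 lower in Cy/+ kidneys, and the median log2 fold change was 0.63 beside 0.090 for all genes tested. The 9 that passed are a share near that of all genes. Dsg2, the desmosomal cadherin desmoglein-2, rose from 194 ± 8.62 (SD, n = 3) to 746 ± 71.8 (SD, n = 3), a log2 fold change of 1.94 (limma, adjusted p = 2.35e-05). Pcdh19 (1.57), Clstn1 (0.93) and Dchs1 (0.68), a partner of Fat4 in planar polarity, were higher too. The 2 that were lower were Cdhr2 (-2.17) and Cdhr5 (-0.74), the protocadherins that link the microvilli of the brush border to each other, and of these 2 the number that passed was 1 without +/+ replicate 1 or +/+ replicate 2. Without the filter on dim probe sets 9 genes of this list were higher and 9 lower.

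Of 30 tested catenins and other adherens junction partners, 19 were higher and 1 lower, beside 37.4% higher and 29.3% lower among all genes tested, and the median log2 fold change was 0.53. Iqgap1 (1.26), Ctnnbip1 (1.17), an inhibitor of beta-catenin, Pkp1 (1.37) and Nectin2 (1.93), an immunoglobulin-like adhesion protein, had the smallest adjusted p among those that rose, and Nectin3 (-0.77) was the lower one. In the list of cadherin cleavage and turnover 4 genes of 15 tested were higher and 3 lower, with a median of -0.01. This balance turned with the scaling, which is unknown for the deposited values: 7 were higher and 3 lower with quantile normalization, and 3 higher and 6 lower with arrays centred on the median. Adam10, the main sheddase of E-cadherin, fell by 1.03 on the log2 scale and Psenen, a gamma-secretase subunit, by 0.36. Adam9 was lower too, with a Cy/+ signal below the threshold (75.6 ± 4.77 against 147 ± 15.5 in +/+ kidneys, SD, n = 3), while Adam15 (1.65), Psen2 (0.98), another gamma-secretase gene, Adam17 (0.36) and Cbll1 (1.23), a ubiquitin ligase for E-cadherin, rose. Without Cy/+ replicate 1 the lower genes of this list were 6, and without Cy/+ replicate 3 they were 5.

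Other regulators tied to mesenchymal transition changed in both directions. This list is not limited to factors that promote the transition, so a mixed count is not a split among promoting factors. Of 14 tested, 5 were higher and 4 lower, and the median log2 fold change was -0.09. Both ZEB genes, which encode repressors of Cdh1, were among the higher ones: Zeb2 rose from 177 ± 4.75 to 1075 ± 180.3 (SD, n = 3), a log2 fold change of 2.59 (limma, adjusted p = 2.35e-05), and Zeb1 from 417 ± 39.3 to 1130 ± 100.4 (SD, n = 3), one of 1.44 (limma, adjusted p = 5.42e-05). Sox4 (1.98) and Tcf4 (1.34) were higher, and Id2 (-1.12), Foxc1 (-1.11), Wwtr1 (-0.53) and Id3 (-0.58) lower, with 2 lower genes without +/+ replicate 1 or +/+ replicate 2. Foxc1 lay below the threshold in Cy/+ kidneys. Of 12 tested regulators of the epithelial state, 9 were higher and 1 lower, with a median of 1.02. Elf3 (2.55), Klf5 (3.81, with a +/+ mean below the threshold), Klf4 (1.16) and Emx2 (0.74) had the smallest adjusted p among those that rose, and Hnf4a, a factor of proximal tubule differentiation, was the lower one, from 7713 ± 154 in +/+ to 2066 ± 826 in Cy/+ kidneys (SD, n = 3).

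Products of both epithelial and mesenchymal cells were higher in the same kidneys. Of 28 tested genes of epithelial structure, 20 were higher and none lower by limma, with a median log2 fold change of 0.94. Krt19 (4.92), Cldn4 (3.41), Pard3 (1.94) and Krt8 (1.63) had the smallest adjusted p. At an unadjusted p below 0.05, 1 gene of this list was lower, Pard6b (-0.26, named after its value was seen), and none was by the methods' t-test after adjustment. With arrays centred on the median or without Cy/+ replicate 3, 1 gene of the list was lower. That number was also 1 with the mean of the probe sets of a gene and with probe sets that can bind several transcripts left out. Of 27 tested mesenchymal products, 22 were higher and none lower by limma, with a median of 1.98, and Col1a1 (3.98), Ncam1 (2.13), Tpm1 (2.11) and Mmp14 (2.01) led by adjusted p. At an unadjusted p below 0.05, 1 mesenchymal product was lower, Tgfbi (-0.43, named after its value was seen), and none was by the methods' t-test after adjustment. With arrays centred on the median or without +/+ replicate 3, 1 gene passed as lower. The list of inducers of the transition and receptors is not limited to factors that promote it, Bmp7 being an exception. Of its 24 tested genes, 12 were higher and 4 lower, with a median of 0.38. Tgfb1 (1.48), Notch1 (1.44), Pdgfra (1.25) and Fgfr1 (0.89) were higher, and Egf (-2.13), Met (-0.80), Bmp7 (-0.74) and Tgfbr3 (-0.35) were lower. The median of the 8 tested cadherin and switch genes was 0.58. These medians are descriptions, without a test between lists.

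**Figure D4:**
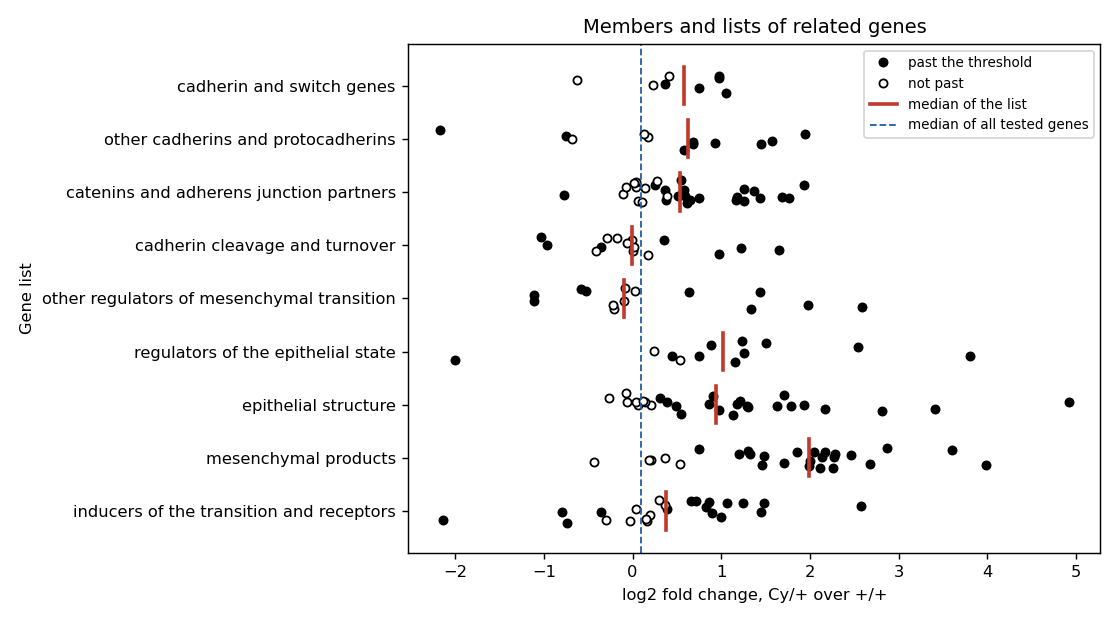
Log2 fold change, Cy/+ over +/+, of each tested gene in the list of cadherin and switch genes and in 8 lists of related genes. Filled points passed limma's adjusted p of 0.05, open points did not, red bars are list medians and the dashed line is the median of all tested genes, 0.090. The cadherin and switch genes lie between -0.62 and 1.06, and the mesenchymal products have the median farthest to the right, at 1.98.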

How the data were processed

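Kidney RNA of 3 Cy/+ and 3 +/+ samples was labelled from 5 μg and read on rat oligonucleotide arrays, 1 per sample. Image analysis by the authors used GCOS; MAS5 is named in the submitters' processing notes. The deposited intensity values are linear, run from 10.65 to 32240 and carry no detection calls, and the scaling between arrays is not given in the sources used here. Precision is limited by the number of arrays.

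Signals were taken to log2 without pseudocount or scaling. Of 31099 probe sets, 57 controls were left out, and 18625 passed the filter (mean log2 signal at or above the 40th percentile, 6.28). Of the probe sets 20832 have 1 gene symbol, 436 several and 9831 none; symbols of the lists were updated through 20764 matched Entrez IDs. The test of genotype was limma's (version 3.58.1, R 4.3.3; lmFit, eBayes with an intensity trend, no covariate), with Benjamini-Hochberg adjustment over all 18625 probe sets. The fit was tested on simulated data.

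All members are named; of 8 lists of related genes, up to 4 genes of smallest adjusted p each way, and the 7 marker lists, under the same rule, are given as counts and sums. Pard6b and Tgfbi were named outside this rule. Of the marker lists whose counts are not given with the results, endothelium had 5 of 11 tested genes lower (8 without Cy/+ replicate 1). The list of thick limb and distal tubule had 3 of 10 higher and 4 lower. Among all genes tested, 37.4% were higher and 29.3% lower. The members and lists were chosen with earlier results of these data known. Alternatives changed 1 choice at a time: scaling, floor, pseudocount, filter, trend, array weights, t-test, replicate block, probe set choice and leaving out each array.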

Additional observations from a re-analysis of the deposited data

Results flagged for a closer look

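Cdh17 gave a signal outside the tested probe sets. Its probe set lay below the filter, yet its mean signal was 114.5 ± 43.0 (SD, n = 3) in Cy/+ kidneys, above the 38.8 ± 0.56 (SD, n = 3) of the +/+ kidneys, and no Cy/+ array overlapped with a +/+ array. Without the filter it passed as higher (limma, adjusted p = 0.00112). The +/+ signal is dim and has no detection call, so the size of the difference is uncertain.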

How the results depend on the processing

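Cdh1 and Cdh6 were higher in every alternative that tested them. The number of cadherin and switch genes that were higher was 3 with the filter at the 60th percentile, which left out Cdh6, Snai1 and Twist1, 2 with the methods' t-test, and 2 to 5 when 1 array was left out. The number that were lower was 1 with array quality weights, 1 with the mean of the probe sets of a gene, and 0 to 1 when 1 array was left out. Cdh11 and Snai1, which had not passed, changed sign without Cy/+ replicate 1, and over the arrays left out their log2 fold changes ran from -0.037 to 0.653 and from -0.079 to 0.402. Over the 8 lists of related genes, 98 genes were higher and 15 lower; the lower ones were 24 with arrays centred on the median and 23 without a filter, and 11 to 19 when 1 array was left out. For other changes the cause was not tested. The replicate number pairs nothing that the labels state, and deviations of same-numbered arrays correlated at 0.15, -0.11 and -0.15. With the replicate block 5 member genes were higher and 0 lower, as without it, and the calls over all probe sets went from 6661 higher and 5830 lower to 6293 and 5340. Centring on the median lowered every log2 fold change by 0.071. Signal near the array background limits Cdh17, Twist1 and the dim second probe sets.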
